A study of Homo sapiens with 12 samples.

Results

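The mRNAs described here encode the machinery with which the cell transcribes its protein-coding genes: the subunits of RNA polymerase II (Pol II), the general transcription factors TFIIA to TFIIH, the TBP-associated factors (TAFs), the Mediator complex, and the pause-release kinase P-TEFb with its inhibitor HEXIM1. They were chosen by gene symbol (the POLR2, GTF2, TAF and MED names, CDK7, CDK8, CDK9, CCNT1, CCNT2, HEXIM1 and TBP, without TAF15, an RNA-binding protein of the FET family) and had at least 10 counts in 3 or more libraries. Of 91 symbols in the table that matched, 83 met that minimum, out of 26334 genes listed, and all 83 were among the 12775 genes tested. The 4 genes TAF1A to TAF1D belong to the Pol I factor SL1, and TAF5L and TAF6L to the SAGA coactivator, so the gene names reach slightly beyond Pol II. POLR2J4, a copy of POLR2J, had no complete protein-coding transcript in the annotation used.

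The cells, shA673-1c, derive from A673, an Ewing sarcoma line, and carry an inducible hairpin against EWS::FLI1, the fusion oncogene of this tumour. Every library came from cells kept in 1 µg/ml doxycycline for 4 days to knock the fusion down and grown under blasticidin and zeocin, so the knockdown was common to all groups and is not itself compared. Polyadenylated RNA was sequenced after 0, 1, 2 and 4 h of 5 µM actinomycin D, with 3 biological replicates at each time. All 12 libraries are of 1 cell line, and none was free of doxycycline.

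Actinomycin D inserts into DNA and stops RNA polymerases from elongating, so the drug blocks the very machinery these genes encode, and the time course asks how fast the existing mRNAs of that machinery are lost. At a promoter, TFIID, whose core is the TATA-binding protein TBP and its TAFs, binds first; TFIIA and TFIIB stabilise it, TFIIF brings in Pol II, and TFIIE and TFIIH open the DNA and phosphorylate the polymerase. Mediator relays signals from DNA-bound activators through its tail, middle and head modules, while a detachable kinase module regulates it. P-TEFb, the kinase CDK9 with cyclin T1 or T2, releases the paused polymerase, and the 7SK ribonucleoprotein with HEXIM1 holds P-TEFb inactive.

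Library totals lay between 9381855 and 10929000 counts, and the 83 genes took 0.325% to 0.402% of them. CCND1 (mean 515 CPM, reads scaled to a common library total), STEAP1 (17 CPM), STEAP2 (14.1 CPM), FLI1 (13.6 CPM) and PRKCB (8.02 CPM) were present in every library, while the Ewing sarcoma markers NR0B1 and NKX2-2 averaged 3.36 and 1.18 CPM and CD99 was listed at 0 throughout. Of 12 markers of blood, epithelium and liver, HBB had 7.64 to 27 CPM and the others averaged at most 0.469 CPM. The table held no spike-in. Each change is therefore relative to the other mRNAs of the same library, and in bulk RNA fewer cells and less RNA per cell cannot be told apart. CPM below were scaled by the trimmed mean of M-values (TMM), and the median log2 change of all genes tested at 4 h was 0.05; it was -0.10 when libraries were scaled to their totals and -0.32 when scaled to ribosomal protein mRNAs.

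After 4 h of actinomycin D the mRNAs of P-TEFb and HEXIM1, of the Mediator head and middle, of TFIIB, of TFIIE's larger subunit and of several TAFs had fallen, while those of most Pol II subunits and of part of the Mediator tail were higher relative to the other mRNAs. When 4 h was set against 0 h, 31 of the 83 genes were lower (37.3%, against 24.6% of all genes tested) and 21 were higher (25.3%, against 23.3%) at an adjusted p under 0.05 in edgeR's quasi-likelihood test. The libraries of both times did not overlap for any of these 52 genes. A call with 3 libraries per group favours such separation, so it adds no support. Its share over all genes was not counted. Falls were larger than rises, here and over all genes. By over 2-fold 11 genes fell (13.3%, against 11.4% of all genes), and POLR2J4 alone rose. Of the 12775 genes tested, 1455 fell and 105 rose by over 2-fold. The median log2 change of the 83 genes was -0.08. The share that rose lay near that of all genes, and so did the share that fell by over 2-fold.

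The number of rises hung on the scaling. With libraries scaled to their totals 37 of the 83 genes were lower (against 31% of all genes) and 8 higher (against 10.5%), and with scaling to ribosomal protein mRNAs 51 were lower (against 45.8%) and 1, POLR2J4, higher (against 1.2%). In a fit that takes the replicate number as a block, given because libraries of 1 number deviated together, 38 were lower (45.8%, against 30.8% of all genes) and 27 higher (32.5%, against 34.8%). The block added 13 calls: MED10, MED19, MED20, POLR2A, TAF1D, TAF4B and TAF11 were lower, and GTF2H4, GTF2H5, MED29, POLR2C, TAF9 and TAF9B were higher.

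**Figure D1:**
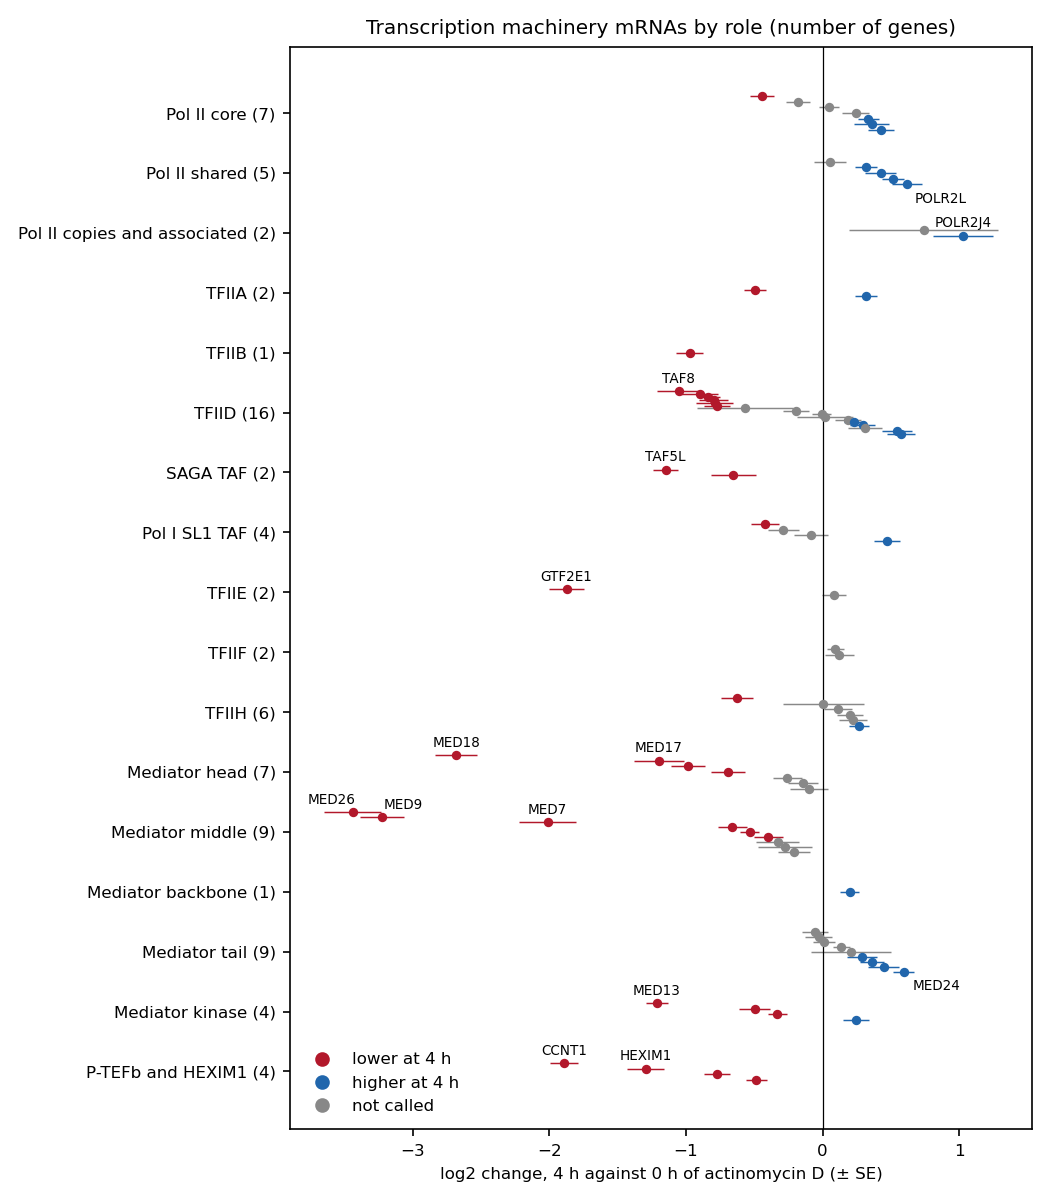
Log2 change at 4 h against 0 h of actinomycin D for each of the 83 genes (points, with SE as bars), by role from Pol II at the top to P-TEFb and HEXIM1 at the bottom; colours give genes lower (31), higher (21) or not called (31). The Mediator head and middle and P-TEFb lie left of 0, reaching -3.44 in MED26, and most Pol II subunits lie right of it, with POLR2L at 0.62.

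Calls built up with time. At 1 h, 2 genes, MED26 and MED9, were lower (2.41%, against 1.16% of all genes) and none was higher (against 0.172%). At an unadjusted p under 0.05, not counted over all genes, edgeR gave 10 lower and 4 higher. DESeq2 also called none higher. At 2 h, 12 were lower (14.5%, against 11.7%) and 3 were higher (3.61%, against 3.39%), shares close to those of all genes. Scaling to ribosomal protein mRNAs gave 19 lower (against 17.1%) and 0 higher (against 0.196%) at 2 h, and library totals gave 1 higher (against 1.12%). Leaving out single libraries moved the small counts. At 1 h, 0 genes were lower without 0 h replicate 1 or 2 or 1 h replicate 2 or 3. Over all genes the lower calls went in those fits, in that order, from 148 to 58, 44, 44 and 46. Without 1 h replicate 1, 1 of the 83 was lower and 1 higher, against 75 and 25 of all genes. At 2 h, 1 gene was higher without 0 h replicate 1 or 2 and 0 without 0 h replicate 3 or 2 h replicate 2. Over all genes the higher calls went in those fits, in that order, from 433 to 213, 146, 258 and 135. In the fit to all libraries, the 12 lower and 3 higher genes at 2 h were all called in the same direction at 4 h. Of the 31 genes lower at 4 h, 19 had not been called at 2 h. Over all genes lower calls also grew, from 1496 at 2 h to 3148 at 4 h, and how many were shared was not counted. In the blocked fit 9 genes were lower (against 6.28% of all genes) and 4 higher (against 2.52%) at 1 h, and 22 lower (against 19.5%) and 9 higher (against 15.9%) at 2 h. The 9 genes lower at 1 h in the blocked fit were MED26, MED9, MED7, CCNT1, GTF2E1, HEXIM1, MED13, TAF8 and TAF7, and the 4 higher were TAF1C, TAF6, MED14 and MED24.

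Of the 12 subunits of Pol II, 7 rose (58.3%, against 23.3% of all genes), 1 fell and 4 were not called at 4 h, with a median log2 change of 0.32. A value of that size was common: among all genes the bin with most genes (1383) was centred at 0.35. GAPDH, a check gene, rose by 0.44 (log2, edgeR adjusted p = 0.0017). POLR2A, which encodes the catalytic largest subunit with the C-terminal repeat domain, had 382, 302 and 321 CPM at 4 h (replicates 1, 2 and 3), against 409, 359 and 371 CPM at 0 h. Each replicate was lower at 4 h, but the 2 groups overlapped. Its log2 change of -0.18 (SE 0.09, edgeR adjusted p = 0.10) passed the threshold with the replicate block (adjusted p = 1.5e-04), without 4 h replicate 1, and under scaling to totals or to ribosomal protein mRNAs. POLR2B, the second largest subunit, had 120, 114 and 102 CPM at 4 h and 112, 112 and 102 CPM at 0 h, a log2 change of 0.05 (adjusted p = 0.63).

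The rises were spread over small subunits, most of them shared with Pol I and Pol III. POLR2L, a zinc-binding subunit of all 3 nuclear polymerases, had 49.0, 51.5 and 55.2 CPM at 4 h, against 33.8, 30.9 and 36.7 CPM at 0 h. All its 4 h libraries stood above all 0 h libraries, a 1.53-fold rise (log2 change 0.62, SE 0.11, adjusted p = 6.6e-04). POLR2E, the shared jaw subunit, had 161, 150 and 162 CPM at 4 h, against 99.9, 113 and 118 CPM at 0 h, a 1.43-fold rise with the groups again apart (log2 change 0.52, adjusted p = 2.5e-04). POLR2F and POLR2H, also shared, rose by 0.42 and 0.32, and of the Pol II-specific subunits POLR2J rose by 0.43, POLR2I by 0.36 and POLR2G by 0.34 (log2). POLR2K, the last shared subunit, was not called (log2 change 0.06).

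The rises depended on the scaling. With libraries scaled to their totals 3 Pol II subunits were higher and 2 lower (against 10.5% and 31% of all genes). With scaling to ribosomal protein mRNAs none was higher and 4 were lower (against 1.2% and 45.8%), with a median log2 change of -0.05. POLR2L and POLR2E stayed above 0 under ribosomal protein scaling but were no longer called (adjusted p = 0.067 and 0.19). The strand setting of the counts was not given, and exons of POLR2L overlap those of CD151, a tetraspanin gene on the opposite strand; those of POLR2J overlap LRWD1 and those of POLR2I overlap TBCB. A part of such reads in these values was not tested.

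POLR2D was the exception among the subunits. It encodes Rpb4, which with the POLR2G product Rpb7 forms the stalk that can leave the polymerase, and the heterodimer has been tied to mRNA decay in yeast. POLR2D had 33.0, 35.8 and 33.0 CPM at 4 h, against 46.2, 50.1 and 42.2 CPM at 0 h, with no overlap. It fell 1.36-fold (log2 change -0.44, SE 0.09, adjusted p = 9.8e-04), while POLR2G had 57.9, 59.6 and 64.0 CPM at 4 h and 47.6, 46.4 and 49.96 CPM at 0 h. Within each library, where scaling plays no part, the count of POLR2D over that of POLR2G was 0.569, 0.600 and 0.515 at 4 h, against 0.970, 1.08 and 0.845 at 0 h. This stretch of the POLR2D 3′ UTR (chromosome 2, bases 1829 to 1858 of 4556 in the GENCODE v29 transcript, build GRCh38) is shown for its run of overlapping UUAUUUAUU elements, in capitals, the most found in any of these genes.
POLR2D: auucuuauuuUUAUUUAUUUAUUUAUUuuu

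AU-rich elements of this kind, AUUUA or its extension UUAUUUAUU, are known to recruit decay factors to short-lived mRNAs. Searched on the sense strand of the 3′ UTR, with overlapping matches counted, AUUUA occurred in 71.5% and UUAUUUAUU in 8.99% of the 11579 genes tested that had a 3′ UTR in the annotation. A match is a description of the letters and not a measured site.

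POLR2J4, a copy of POLR2J with no complete protein-coding transcript in GENCODE v29, had 4.08, 5.54 and 5.09 CPM at 4 h, against 2.93, 2.64 and 1.67 CPM at 0 h (log2 change 1.03, SE 0.22, adjusted p = 0.0019). Its exons overlap UBE2D4 on the opposite strand and transcribed pseudogenes on its own strand. POLR2J3, the member nearest the count minimum with 10 counts or more in 4 libraries, had 4 to 14 counts and was not called (log2 change 0.74, SE 0.55). Reads of these near-identical copies of POLR2J may have been split between them, and POLR2J2 was listed at 0 in every library. Just outside the minimum, TAF7L, a paralogue of TAF7, reached 9 counts in its highest library and POLR2M, the Gdown1 gene, reached 7. MED12L, GTF2H2B and TAF1L were also under it, and GTF2A1L and GTF2H2C were listed at 0.

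Among the 29 general factors of TFIIA, B, D, E, F and H, 10 fell (34.5%, against 24.6% of all genes), 6 rose (20.7%, against 23.3%) and 13 were not called at 4 h. The partners in TFIIE and TFIIA, described after their values were seen, differed in call, and those in TFIIF did not. TFIIE is built from a large and a small subunit. GTF2E1, the large one, had 23.3, 23.9 and 23.5 CPM at 0 h, 19.4, 21.3 and 15.9 CPM at 1 h, 13.2, 15.2 and 15.2 CPM at 2 h and 6.12, 7.22 and 5.94 CPM at 4 h. It fell 3.66-fold by 4 h (log2 change -1.87, SE 0.13, adjusted p = 1.6e-07) and was already lower at 2 h (log2 change -0.70, adjusted p = 0.0013). GTF2E2, the small subunit, had 57.5, 54.1 and 51.1 CPM at 4 h and 53.3, 49.3 and 51.1 CPM at 0 h, overlapping groups (log2 change 0.08, adjusted p = 0.48). The count of GTF2E1 over that of GTF2E2 was 0.107, 0.133 and 0.116 at 4 h, against 0.438, 0.486 and 0.460 at 0 h, a ratio 3.9-fold lower. Exons of GTF2E1 overlap RABL3 on the opposite strand.

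In TFIIA, one subunit fell and the other rose. GTF2A1, the precursor of its large subunits, had 45.6, 53.2 and 56.6 CPM at 4 h, against 71.0, 74.7 and 73.8 CPM at 0 h (log2 change -0.50, SE 0.08, adjusted p = 2.8e-04). GTF2A2, the small subunit, had 49.0, 56.3 and 49.8 CPM at 4 h, against 41.6, 39.8 and 42.9 CPM at 0 h (log2 change 0.32, adjusted p = 0.0064), a rise that was not called with library totals (adjusted p = 0.12) and turned to -0.06 under ribosomal protein scaling (adjusted p = 0.63). Each gene's groups stood apart. Both 3′ UTRs hold UUAUUUAUU, in capitals in the sites shown because one mRNA fell and the other did not (GTF2A1 on chromosome 14, bases 4742 to 4771 of 4771; GTF2A2 on chromosome 15, bases 65 to 94 of 1070).
GTF2A1: aauaaagauaucUUAUUUAUUgccagcaaa
GTF2A2: aagagacuuuUUAUUUAUUcuagaauugca

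GTF2B, the single-chain factor TFIIB that positions Pol II at the start site, had 19.3, 15.5 and 15.6 CPM at 4 h, against 33.0, 33.8 and 32.0 CPM at 0 h. The 4 h libraries all lay under the 0 h ones, a 1.96-fold fall (log2 change -0.97, SE 0.10, adjusted p = 3.9e-06). Neither subunit of TFIIF was called, with log2 changes of 0.09 for GTF2F1 and 0.12 for GTF2F2. Of 6 TFIIH genes, CDK7, the kinase that phosphorylates the C-terminal domain at initiation, fell and GTF2H3, a core subunit whose exons overlap EIF2B1, rose (log2 change 0.26, adjusted p = 0.011). The GTF2H3 call ended with library totals (adjusted p = 0.26) and under ribosomal protein scaling, where the value turned to -0.11 (adjusted p = 0.35). CDK7 had 37.2, 33.6 and 27.8 CPM at 4 h, against 53.8, 50.5 and 47.7 CPM at 0 h (log2 change -0.63, SE 0.12, adjusted p = 8.6e-04), and its groups did not overlap. The other 4 TFIIH genes had log2 changes between 0.01 and 0.22 and were not called; with the replicate block GTF2H4 and GTF2H5 were higher (adjusted p = 0.039 and 0.017).

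Of the 16 TFIID genes 6 were lower (37.5%, against 24.6% of all genes), 4 higher (25%, against 23.3%) and 6 not called (median log2 change -0.10). The rises depended on the fit. With library totals 7 were lower and 2 higher (against 31% and 10.5% of all genes). Under ribosomal protein scaling 9 were lower and 0 higher (against 45.8% and 1.2%). DESeq2 gave 6 lower and 2 higher (against 3108 and 2477 of the 12775 genes). The replicate block gave 8 lower and 6 higher (against 30.8% and 34.8%). TBP had 9.18, 8.57 and 9.33 CPM at 4 h, against 16.1, 16.02 and 18.4 CPM at 0 h. Its groups were apart and it fell 1.87-fold (log2 change -0.90, SE 0.14, adjusted p = 1.4e-04), having kept a log2 change of -0.02 at 1 h (SE 0.13). TAF1, the largest subunit and the scaffold that binds TBP, had 49.4, 54.4 and 55.4 CPM at 4 h and 53.2, 52.2 and 54.6 CPM at 0 h (log2 change -0.01), so that the TBP count was 0.186, 0.158 and 0.169 of the TAF1 count at 4 h, against 0.304, 0.307 and 0.337 at 0 h.

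TAF8, a histone-fold subunit that helps carry a TFIID subcomplex into the nucleus, fell furthest of the TFIID genes, with 4.31, 4.81 and 4.77 CPM at 4 h against 9.73, 8.67 and 10.5 CPM at 0 h (log2 change -1.05, SE 0.16, adjusted p = 1.2e-04). TAF7, TAF3, TAF5 and TAF4 fell by between 0.77 and 0.84 on the log2 scale, and their libraries at 4 h lay below those at 0 h. TAF6, the histone-fold partner of TAF9, rose instead, with 86.0, 74.6 and 93.4 CPM at 4 h against 56.1, 52.1 and 62.4 CPM at 0 h (log2 change 0.57, SE 0.10, adjusted p = 5.5e-04). TAF10, which TFIID shares with SAGA, had 15.9, 18.4 and 17.9 CPM at 4 h against 13.1, 11.2 and 11.4 CPM at 0 h (log2 change 0.55, adjusted p = 0.0012). Both rises stayed above 0 but were not called under ribosomal protein scaling (adjusted p = 0.19 and 0.27), and exons of TAF6 overlap AP4M1 and CNPY4 and those of TAF10 overlap ILK, all on opposite strands.

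The SAGA counterparts of these TAFs moved the other way from their TFIID relatives in one case. TAF6L, which takes the place of TAF6 in SAGA and whose exons overlap TMEM223, fell by 0.65 on the log2 scale (adjusted p = 0.0055), and its count relative to that of TAF6 was 0.0975, 0.128 and 0.112 at 4 h, against 0.242, 0.288 and 0.258 at 0 h. TAF5L, the SAGA form of TAF5, had 23.6, 23.9 and 28.8 CPM at 4 h against 54.0, 58.6 and 56.9 CPM at 0 h. No library overlapped, and TAF5L fell 2.22-fold (log2 change -1.15, SE 0.09, adjusted p = 3.8e-07). Of the Pol I factors, TAF1B fell by 0.42 (adjusted p = 0.0043) and TAF1C rose, with 62.4, 58.6 and 62.1 CPM at 4 h against 43.4, 46.6 and 42.1 CPM at 0 h (log2 change 0.47, adjusted p = 0.0014). Under ribosomal protein scaling TAF1C had a log2 change of 0.10 and was not called (adjusted p = 0.46).

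**Figure D2:**
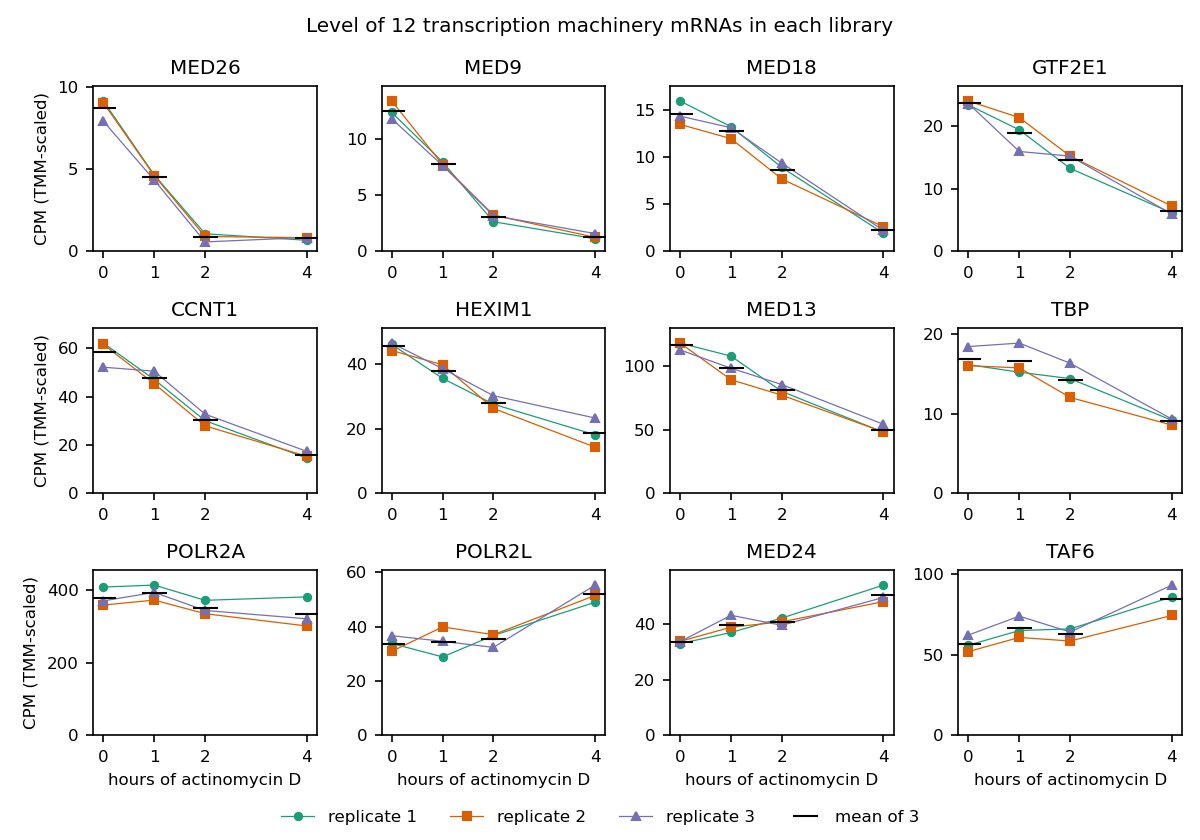
CPM in each library (coloured symbols joined by replicate; black dashes, mean of 3) against hours of actinomycin D for 12 genes, on linear axes from 0. MED26 is low by 2 h (mean 0.856 CPM), CCNT1, HEXIM1 and MED13 fall steadily, TBP falls mainly after 2 h, and POLR2L, MED24 and TAF6 are highest at 4 h.

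In Mediator, 13 of 30 genes fell (43.3%, against 24.6% of all genes) and 6 rose (20%, against 23.3%), and the modules differed. Of the 16 head and middle genes 10 fell and none rose (median log2 change -0.60), whereas of the 9 tail genes 4 rose and none fell (median 0.20). At an unadjusted p under 0.05 edgeR gave 11 lower and 0 higher in head and middle and 5 higher and 0 lower in the tail. These unadjusted counts were not taken over all genes, so they have no share to be read against. DESeq2 called 10 lower and 0 higher in head and middle, and 3 higher and 0 lower in the tail. Of the 12775 genes it called 3108 lower and 2477 higher. The head and middle count was 13 lower and none higher when libraries were scaled to totals and 16 lower under ribosomal protein scaling. The tail count was 1 higher under totals, and under ribosomal protein scaling 4 were lower and none higher (median -0.16). Over all genes 31% were lower and 10.5% higher under totals, and 45.8% lower and 1.2% higher under ribosomal protein scaling. The difference between modules was not tested.

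MED26, the subunit that docks elongation factors onto Mediator, fell earliest, with MED9. It had 9.16, 9.05 and 7.93 CPM at 0 h, 4.66, 4.62 and 4.35 CPM at 1 h, 1.08, 0.91 and 0.58 CPM at 2 h and 0.68, 0.837 and 0.848 CPM at 4 h, the 4 h values from 6, 8 and 8 counts, against 97, 96 and 90 counts at 0 h. The groups at 1, 2 and 4 h all lay below the 0 h group, and those at 2 and 4 h overlapped. Its log2 change was -0.94 at 1 h (SE 0.16, adjusted p = 0.012), -3.33 at 2 h (SE 0.20, adjusted p = 5.3e-07) and -3.44 at 4 h (SE 0.21, adjusted p = 4.8e-08). The call at 1 h ended in 4 of 12 fits that left out a library, those without 0 h replicate 1 or 2 or 1 h replicate 2 or 3 (adjusted p from 0.0654 to 0.076).

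MED26 was also the only one of the 83 genes called for a change of rate. Its log2 change between 2 and 4 h exceeded the one between 0 and 2 h by 3.22 (SE 0.45, adjusted p = 0.0090). Of all genes 0.384% were called for a change of rate in that direction and 0.227% in the other. In that other direction edgeR called no member and DESeq2 called 1. At an unadjusted p under 0.05, not counted over all genes, edgeR gave 11 in that direction and 7 in the positive one. The MED26 call ended when either 2 h replicate 2 (adjusted p = 0.071) or replicate 3 of that time (adjusted p = 0.0508) was left out. With the replicate block 7 members were called in each direction (against 7.39% of all genes in the positive and 5.46% in the negative direction), among them MED18 and MED17, which fell faster after 2 h (log2 differences of -1.18 and -0.57, blocked adjusted p = 0.0032 and 0.0086).

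MED9, a small subunit of the middle module, had 12.4, 13.4 and 11.8 CPM at 0 h, 7.97, 7.73 and 7.65 CPM at 1 h, 2.65, 3.24 and 3.19 CPM at 2 h and 1.13, 1.25 and 1.59 CPM at 4 h. No library overlapped with one of another time. It fell 9.34-fold by 4 h (log2 change -3.22, SE 0.16, adjusted p = 1.0e-08), and its call at 1 h (log2 change -0.69, adjusted p = 0.018) ended without 0 h replicate 1 or 2 or without any 1 h library (adjusted p from 0.0567 to 0.126). MED7, a core subunit of that module, had 2.27, 2.405 and 1.27 CPM at 4 h against 8.40, 7.54 and 8.11 CPM at 0 h, a 4.03-fold fall (log2 change -2.01, SE 0.21, adjusted p = 6.3e-06). MED4, MED1 and MED21 fell by 0.66, 0.53 and 0.40 on the log2 scale. MED10 was the least changed of the middle genes (log2 change -0.21) and was called only with the replicate block (adjusted p = 0.017) or with the other scalings to totals and ribosomal protein mRNAs.

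In the head, which contacts Pol II, MED18 had 15.96, 13.5 and 14.4 CPM at 0 h, 13.2, 11.97 and 13.1 CPM at 1 h, 8.91, 7.69 and 9.37 CPM at 2 h and 1.93, 2.61 and 2.23 CPM at 4 h. The 2 h and 4 h groups lay apart from each other and from 0 h, and the fall by 4 h was 6.42-fold (log2 change -2.68, SE 0.15, adjusted p = 2.7e-08). MED17, the scaffold of the head, had 21.6, 25.6 and 15.7 CPM at 4 h against 52.2, 51.6 and 40.9 CPM at 0 h (log2 change -1.20, SE 0.18, adjusted p = 1.7e-04). Replicate 3 was the lowest in both groups, which did not overlap. Exons of MED17 overlap those of TAF1D on the opposite strand, and TAF1D had a log2 change of -0.29 (adjusted p = 0.053, and 0.0030 with the replicate block). MED6 fell by 0.98 and MED8 by 0.69 (log2), and MED11, whose exons overlap CXCL16, had a log2 change of -0.10 (adjusted p = 0.58).

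MED14, the backbone that joins head, middle and tail, had 77.4, 80.8 and 76.6 CPM at 4 h against 70.2, 71.5 and 63.0 CPM at 0 h (log2 change 0.20, SE 0.07, adjusted p = 0.037). That call ended in 14 of 18 alternative fits, among them those without any 1 library of 0 h or 4 h, 1 h replicate 1 or 2, or 2 h replicate 3, and the value turned to -0.18 under ribosomal protein scaling. The MED17 count was 0.280, 0.317 and 0.205 of the MED14 count at 4 h, against 0.743, 0.721 and 0.649 at 0 h. In the tail, MED24 had 53.9, 48.0 and 49.5 CPM at 4 h against 33.0, 33.8 and 33.7 CPM at 0 h, the groups far apart (log2 change 0.59, SE 0.08, adjusted p = 4.6e-05; not called under ribosomal protein scaling, with 0.22 and adjusted p = 0.059). MED15, the tail subunit that many activators bind, rose by 0.45, and MED16 by 0.36 (log2, adjusted p = 0.0061 and 0.0048), and MED23, the lowest of the tail, had a log2 change of -0.05. The calls of MED15 and MED16 ended with library totals (adjusted p = 0.068 and 0.085) and under ribosomal protein scaling.

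The kinase module held CDK8 and 3 large subunits, and the paralogues MED13 and MED13L, either of which links the module to core Mediator, moved at different speeds. MED13 had 118, 118 and 112 CPM at 0 h, 108, 89.1 and 98.1 CPM at 1 h, 79.9, 77.0 and 85.3 CPM at 2 h and 47.9, 48.1 and 54.2 CPM at 4 h. It fell 2.32-fold by 4 h (log2 change -1.21, SE 0.08, adjusted p = 1.1e-07) and was lower at 2 h as well (log2 change -0.52, adjusted p = 4.7e-04). MED13L had 133, 139 and 130 CPM at 4 h against 184, 172 and 151 CPM at 0 h, a 1.26-fold fall without overlap (log2 change -0.33, SE 0.07, adjusted p = 0.0019). The MED13 count was 0.361, 0.347 and 0.415 of the MED13L count at 4 h, against 0.642, 0.686 and 0.745 at 0 h. Both paralogues hold UUAUUUAUU in the 3′ UTR, shown in capitals for comparison (MED13 on chromosome 17, bases 430 to 459 of 3863; MED13L on chromosome 12, bases 588 to 617 of 7394).
MED13: aucucuucucUUAUUUAUUguaaguuuuua
MED13L: uucauuuuguUUAUUUAUUuuaauuuguuu

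CDK8, the kinase itself, had 14.7, 13.7 and 14.8 CPM at 4 h against 20.6, 22.1 and 18.4 CPM at 0 h (log2 change -0.50, SE 0.11, adjusted p = 0.0030), with no overlap. MED12, which activates CDK8, had 57.9, 53.5 and 52.4 CPM at 4 h against 47.8, 42.3 and 48.1 CPM at 0 h (log2 change 0.24, adjusted p = 0.045), a call that ended in 14 of 18 alternative fits (with each library of 0 h or 4 h, 1 h replicate 3 and 2 h replicates 2 and 3 left out in turn among them) and turned to -0.13 under ribosomal protein scaling. CCNC, the cyclin partner of CDK8 and not one of the 83 genes, had a log2 change of 0.24 (adjusted p = 0.0084).

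P-TEFb and its inhibitor fell together: all 4 genes were lower at 2 h (against 11.7% of all genes) and at 4 h (against 24.6%). The median log2 change was -0.53 at 2 h and -1.03 at 4 h. All 4 were lower under each of the 4 scalings at 4 h. Library totals gave 31% of all genes lower there and ribosomal protein scaling 45.8%. The other scalings moved the median of all genes down, from 0.05 to 0.03 (RLE), -0.10 (totals) and -0.32 (ribosomal protein). They could therefore hardly end a call of lower. CCNT1, the cyclin of most P-TEFb and the partner of the HIV protein Tat, had 62.1, 61.5 and 52.2 CPM at 0 h, 47.1, 45.4 and 50.5 CPM at 1 h, 30.1, 27.9 and 32.8 CPM at 2 h and 14.6, 15.4 and 17.4 CPM at 4 h. The 4 groups did not overlap one another. The fall was 3.71-fold by 4 h (log2 change -1.89, SE 0.10, adjusted p = 2.0e-08) and had reached -0.95 at 2 h (adjusted p = 2.2e-05).

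HEXIM1, the inhibitor, had 46.1, 44.2 and 46.5 CPM at 0 h, 35.6, 39.8 and 38.6 CPM at 1 h, 27.6, 26.3 and 30.2 CPM at 2 h and 18.1, 14.3 and 23.3 CPM at 4 h. The times did not overlap, though the 3 replicates at 4 h spread more than at 0 h. HEXIM1 fell 2.45-fold (log2 change -1.29, SE 0.14, adjusted p = 6.5e-06). CCNT2, the alternative cyclin, had 28.8, 27.3 and 26.1 CPM at 4 h against 43.9, 49.5 and 47.0 CPM at 0 h, a 1.71-fold fall (log2 change -0.77, SE 0.09, adjusted p = 2.2e-05), and its exons overlap the antisense gene CCNT2-AS1. CDK9, the kinase, had 36.8, 34.6 and 39.8 CPM at 4 h against 49.4, 53.1 and 53.2 CPM at 0 h, the smallest fall of the 4 (1.40-fold, log2 change -0.49, SE 0.08, adjusted p = 2.4e-04). At 2 h the CDK9 call (adjusted p = 0.049) ended in 10 of 18 alternative fits, including the removal of each library of 0 h or 2 h, of 1 h replicate 1 and of 4 h replicate 1, and that of CCNT2 (adjusted p = 0.020) in 3, those that left out replicate 2 at 0 h or replicate 1 or 2 at 2 h.

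The balance among the 4 mRNAs shifted as they fell. The CCNT1 count was 0.397, 0.444 and 0.437 of the CDK9 count at 4 h, against 1.26, 1.16 and 0.980 at 0 h, a ratio 2.65-fold lower. HEXIM1 stood at 0.492, 0.414 and 0.587 of the CDK9 count at 4 h, against 0.933, 0.833 and 0.874 at 0 h, and CCNT2 at 0.782, 0.789 and 0.656, against 0.889, 0.933 and 0.884. None of these ratios overlapped between the 2 times. The pairs were chosen after their values were seen, so the ratios are given with no test. All 4 genes hold AUUUA, and CCNT2 the longer element, in the 3′ UTR; the sites shown, with the elements in capitals, run from the gene that fell most to the one that fell least (CCNT1 on chromosome 12, bases 2048 to 2077 of 4569; HEXIM1 on chromosome 17, bases 130 to 159 of 1831; CCNT2 on chromosome 2, bases 2326 to 2355 of 4694; CDK9 on chromosome 9, bases 92 to 121 of 1244).
CCNT1: uuuaguacAUUUAgggcuucuAUUUAUUUA
HEXIM1: uugguuucguaaAUUUAgcuauauguagcu
CCNT2: uacaaugacuUUAUUUAUUaaagggcagcc
CDK9: caugcauauuuuAUUUAauccccacccugg

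**Figure D3:**
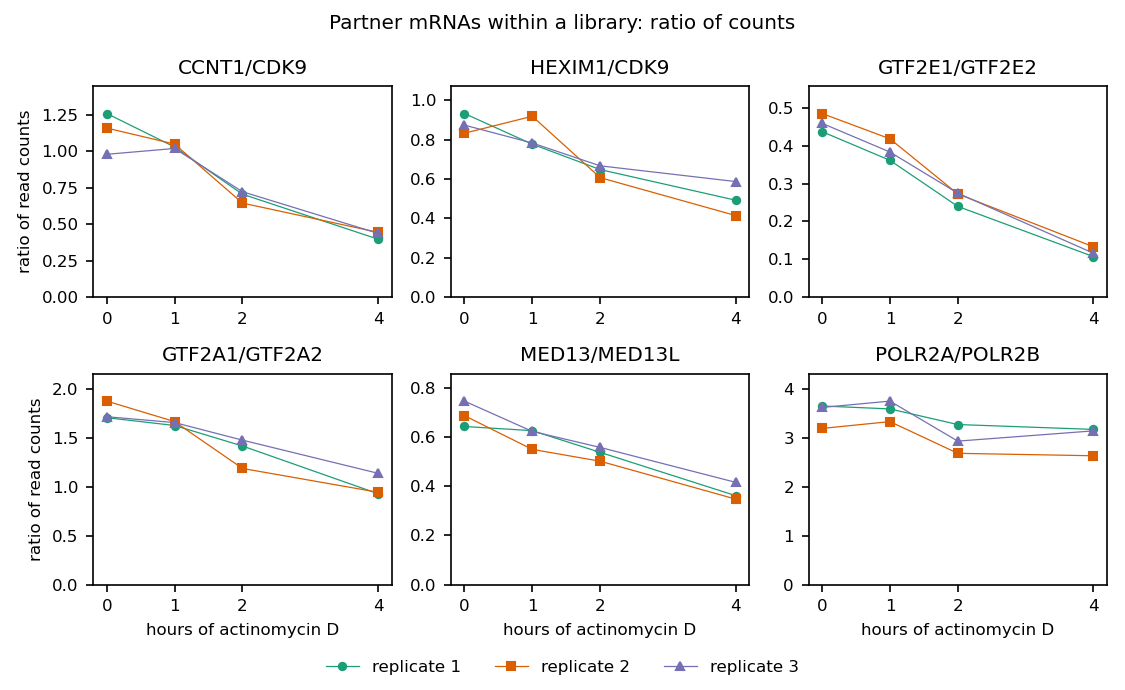
Ratio of read counts of partner genes within each library (symbols joined by replicate) against hours of actinomycin D, on linear axes from 0. The 4 h ratios lie below the 0 h ratios in all 6 pairs, from 3.9-fold lower for GTF2E1 over GTF2E2 to 1.17-fold lower for POLR2A over POLR2B.

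Structure of the mRNAs varied with these changes. With 1 GENCODE v29 transcript per gene, 81 of the 83 genes had a model. POLR2A, whose full-length model that annotation marks as a sequence error, was left out. So was POLR2J4, which had no complete protein-coding transcript there. The genes that fell had few exon junctions for their coding length: a median of 4.52 junctions per kb of coding sequence in the 31 lower genes and 8.0 in the 20 higher ones, beside 7.42 in the 30 not called. Among all 11655 genes with a model the medians were 3.89, 7.60 and 6.69. Across the 81 genes junction density and log2 change at 4 h correlated with Spearman's rho 0.55 and Pearson's r 0.57, and across all genes with 0.43 and 0.47, as a description over genes that share libraries and whose densities share a coding length.

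Of the 11 genes that fell by over 2-fold, 5 have up to 4 exons (45.5%, against 19.2% of all genes). HEXIM1 has 1 exon and so no junction, MED9 and MED7 have 2, and MED26 and MED18 have 3. The 19.2% is over all genes whatever their change, and the share among all genes that fell by over 2-fold was not taken. All genes called lower had a median of 7 exons, against 9 over all genes. MED13, another of the 11, has 30 exons. Few exons also occurred without a fall. Of the 22 members with up to 4 exons, among the 81 with a model (27.2%), 8 were lower, 2 higher and 12 not called, the last including MED10, MED11, MED20 and MED31. By junction density, 10 of the 11 lay below the median density of all genes (6.45 junctions per kb), and TAF8, with 8.57, was the other. All genes called lower also had a low density, with a median of 3.89. GTF2E1 had 3.03 and CCNT1 3.67 junctions per kb. The 11 Pol II subunits with a model had a median of 10.4, and 1 of them lay below the median of all genes, POLR2L with 2 exons and 4.90 junctions per kb, which had the largest rise of the subunits. The 9 tail genes of Mediator had a median of 6.82 and the 16 head and middle genes one of 5.63.

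**Figure D4:**
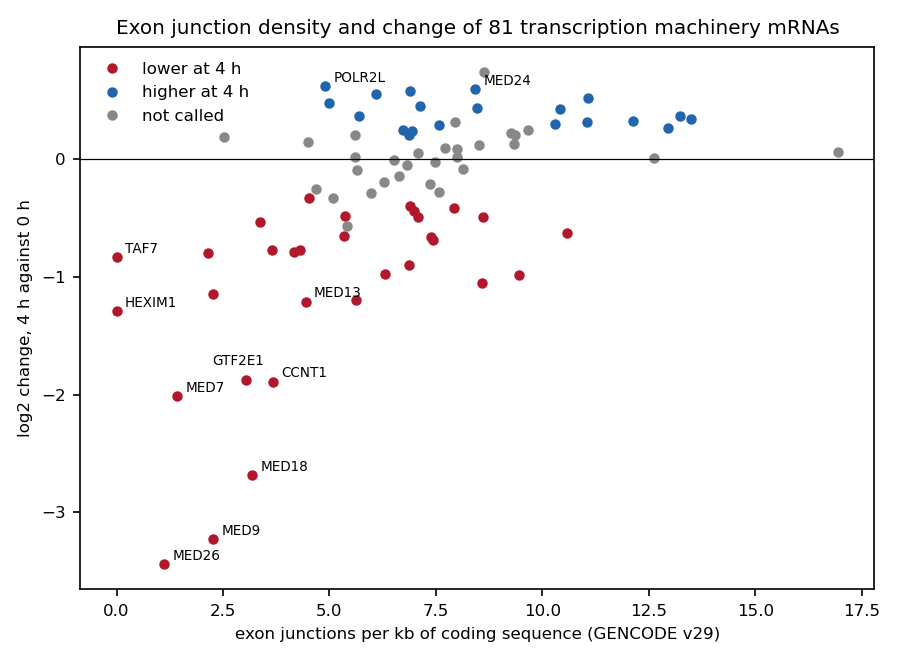
Log2 change at 4 h against 0 h plotted over exon junctions per kb of coding sequence for the 81 genes with a GENCODE v29 model (points coloured by call). Genes that fell furthest, such as MED26, MED9, MED18 and MED7, lie below 3.2 junctions per kb, and genes that rose lie between 4.90 and 13.49.

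The 3′ UTRs differed too. Their median length was 1244 bases in the lower genes and 484.5 in the higher ones, beside 762 in those not called, against 1704, 717 and 1200 over all genes. AUUUA occurred in 29 of 31 lower genes (93.5%), in 9 of 20 higher ones (45.0%) and in 20 of 28 not called (71.4%), against 82.7%, 57.1% and 72.8% over all genes. UUAUUUAUU occurred in 5 of the 31 lower genes (16.1%) and in 1 of the 20 higher ones (5.0%), against 12.2% and 5.96%. The 5 were MED13, MED13L, CCNT2, GTF2A1 and POLR2D, and the higher one was GTF2A2. Longer 3′ UTRs hold more matches by their length alone. Per kb the medians were 3.11 AUUUA in lower, 1.67 in not called and 0 in higher genes, against 2.10, 1.79 and 0.922 over all genes. The median of 0 arose because most of the higher genes held no match.

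Levels before the drug, as 0 h CPM per kb of transcript, had a median of 7.97 in the 11 genes that fell by over 2-fold. The median was 9.59 in the Mediator head and middle and 9.58 in TFIID, which include some of these genes, and 26.4 in the Pol II subunits. Genes that did not fall could be as low, such as MED28 (3.56), MED12 (6.78) and TAF2 (6.81). TAF7 was the highest of the genes with a model, with 72.1 CPM per kb, followed by POLR2G with 58.0. The 11 genes that fell by over 2-fold lay between 1.44 (TAF8) and 18.2 (TAF5L) CPM per kb, the 4 genes of P-TEFb and HEXIM1 between 6.77 (CCNT2) and 21.1 (CDK9), and the 11 Pol II subunits between 9.16 (POLR2D) and 58.0.

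Genes that work beside the 83 also fell and rose, and their counts stand beside 24.6% lower and 23.3% higher over all genes tested. The unadjusted counts in brackets were not taken over all genes and have no such share. Of 12 tested genes of the 7SK complex and P-TEFb partners 7 fell (58.3%) and none rose (10 and 0 at an unadjusted p under 0.05), led by MEPCE, the capping enzyme of 7SK RNA, with 24.3 ± 5.62 CPM at 4 h and 79.9 ± 3.99 CPM at 0 h (SD, n = 3 each; log2 change -1.72, edgeR adjusted p = 3.4e-07), and ELL, an elongation factor of the super elongation complex (log2 change -1.56). Of 23 pausing and elongation genes 8 fell (34.8%) and 11 rose (47.8%). CDK13 and CDK12, the kinases of the elongating polymerase, fell by 1.70 and 1.11 on the log2 scale, and TCEB2, which encodes elongin B, rose by 0.63. Of 14 genes of C-terminal domain phosphatases and Pol II assembly 7 fell (50%) and 2 rose (14.3%), with RPRD2 at -1.78, the phosphatase CTDP1 at -1.35 and the assembly GTPase GPN1 at 0.22 (log2). Of 8 Pol I subunits 5 fell (62.5%) and none rose (6 and 0 unadjusted), led by CD3EAP (log2 change -1.05) and POLR1B (-0.91), and of 11 Pol III subunits 3 fell (27.3%, near the share of all genes) and 1 rose (9.09%), with POLR3B at -0.90, POLR3C at -0.65 and POLR3GL at 0.38. Of 6 other genes of TFIIH and the Mediator kinase, 1 rose (16.7%), CCNC, and none fell (3 and 0 unadjusted). Over all 74 such genes 30 were lower (40.5%) and 15 higher (20.3%) at 4 h, with a median log2 change of -0.17.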

How the data were processed

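The authors deposited raw counts of reads for each gene symbol, from polyadenylated RNA of 12 libraries prepared with a stranded TruSeq kit, per the labels' protocols. FastQC, STAR and the genome build hg19 are named per the submitters' processing notes. How reads were counted (program, annotation, strand) is not given in the sources used here. Counts were tested with edgeR 4.0.16 in R 4.3.3 (filterByExpr, TMM, dispersions over all 12 libraries, quasi-likelihood test of 1, 2 and 4 h against 0 h and of the change of rate), with Benjamini-Hochberg adjustment over 12775 genes and a threshold of 0.05. SE is the absolute log2 change over the square root of F. CPM use TMM-scaled totals.

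Members, role lists, partner pairs and structural features were chosen with earlier results of these data known. Per-library values follow the 8 largest falls and 6 largest rises at 4 h with at least 5 CPM on average, calls at 1 h and of rate, and a fixed set (POLR2A, TBP, HEXIM1, CDK7, CDK8, CDK9, CCNT1, CCNT2, MED13, MED13L); each role's extremes are named, as are, per neighbouring list, up to 2 falls and 1 rise. Further genes were named after their values were seen.

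Replicate numbers in the labels paired the libraries: deviations from group means correlated at 0.263 to 0.649 within a number and at -0.501 to 0.16 between numbers. Replicates differed by 4.13 to 15.2 chi-square per degree of freedom, so each counted once. Alternatives were other scalings (RLE size factors, library totals, ribosomal protein mRNAs), no filter on low counts, DESeq2 1.42.0, the replicate block and leaving out each library. Transcript features and sequences come from GENCODE v29 (GRCh38), the best APPRIS transcript per gene; hg19 positions are not given. The scripts were tested on simulated data.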

Additional observations from a re-analysis of the deposited data

Results flagged for a closer look

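MED26 was the one gene of the 83 whose log2 change from 2 to 4 h differed from that from 0 to 2 h in the test of that difference, by 3.22 (SE 0.45, edgeR adjusted p = 0.0090). Its counts were 97, 96 and 90 at 0 h, 45, 49 and 50 at 1 h, 11, 9 and 6 at 2 h, and 6, 8 and 8 at 4 h, so the later interval rests on few reads.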

How the results depend on the processing

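Leaving out each library in turn gave 0 to 2 genes lower at 1 h (2 with all libraries), 0 to 1 higher at 1 h (0), 9 to 13 lower at 2 h (12), 0 to 4 higher at 2 h (3), 31 to 33 lower at 4 h (31), 15 to 22 higher at 4 h (21) and 0 to 1 with a positive change of rate (1). Over all genes those fits gave 44 to 152 lower at 1 h (148 with all libraries). They gave 135 to 431 higher at 2 h (433) and 2300 to 2946 higher at 4 h (2975). The replicate block pairs libraries by their number. With it, 9 of the 83 genes were lower and 4 higher at 1 h, and 22 lower and 9 higher at 2 h. For the change of rate, 7 each were negative or positive. Ribosomal protein scaling gave 19 lower and 0 higher at 2 h (edgeR, all genes adjusted) and 51 lower and 1 higher at 4 h. Library totals gave 1 higher at 2 h, 8 higher at 4 h and 1 negative change of rate; RLE size factors and DESeq2 gave 1 such change each, and no filter gave 1 higher at 2 h. Many log2 changes at 4 h turned negative under ribosomal protein scaling. Among them were MED14 (-0.176), MED12 (-0.128), POLR2K (-0.318), GTF2A2 (-0.055), GTF2E2 (-0.291), GTF2F1 (-0.279), GTF2F2 (-0.252) and GTF2H3 (-0.108). Other called rises that turned negative were POLR2G (-0.037), POLR2H (-0.059), POLR2I (-0.012), MED16 (-0.009), MED25 (-0.082), TAF12 (-0.078) and TAF2 (-0.141). Under library totals those that turned negative included POLR2K (-0.096), GTF2E2 (-0.069), GTF2F1 (-0.057), GTF2F2 (-0.028), POLR2B (-0.105) and MED28 (-0.139). POLR2K ranged from -0.078 to 0.140 without single libraries, below 0 without 0 h replicate 1 (-0.017) or 4 h replicate 2 (-0.078). By construction another scaling shifts all genes alike. The scalings used here shifted them down at 4 h, so they could hardly end a call of lower. Of the 8 largest falls with at least 5 CPM, all kept their call at 4 h in all 18 alternatives. Counts under 15 per library limit what MED26 can show after 2 h.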
